A study of Mus musculus with 6 samples.

Results

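Malat1, Neat1, Kcnq1ot1, Meg3, Snhg11 and Miat are mouse long noncoding RNAs known to stay largely in the nucleus. They were described in 6 mouse RNA-seq libraries, 3 labelled TNFR2-deficient regulatory T (Treg) cells and 3 labelled TNFR2-positive Treg cells. The names were selected on results of this same contrast, with the measured counts of both groups in view, so the members' differences are a description and carry no test. Of the 6, 5 were matched by Ensembl identifier among the 32377 genes of the count table, and Snhg11 is not analysed here. Malat1, Neat1 and Kcnq1ot1 passed the filter on low counts, while Meg3 and Miat did not. TNFR2 (gene Tnfrsf1b) binds tumour necrosis factor and is well represented on Treg cells, and the labels divide the libraries by it. Markers of several cell types also differed between the groups, as given below. A difference tied to TNFR2 therefore cannot be told apart here from one tied to the cells in the libraries. The labels give no strain, tissue, sort, age or allele for either group, and do not state whether each library had its own animal or culture, so the p-values below rest on a spread between libraries that may be technical.

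Long noncoding RNAs of this kind act in the nucleus as scaffolds or at the locus that makes them. Malat1 gathers at nuclear speckles, bodies rich in splicing factors, and is among the most abundant nuclear RNAs of mammalian cells. Neat1 is made from the next gene and its long isoform is the backbone of paraspeckles, bodies built on the proteins SFPQ, NONO and PSPC1. Kcnq1ot1 is transcribed from the paternal allele, antisense to Kcnq1, and silences genes of its imprinted cluster in cis. Meg3 is the maternally expressed RNA of the imprinted Dlk1-Dio3 domain. Miat, also called Gomafu, is best known from neurons and carries repeats of a branch point-like sequence bound by the splicing factor SF1. Snhg11 is a host of small nucleolar RNAs. Counts per gene do not show where in the cell a transcript lies.

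The 3′ ends of Malat1 and Neat1 are shown because the libraries were made from RNA captured with oligo-dT beads, and neither Malat1 nor long Neat1 ends in a conventional poly(A) tail. The effect of this capture on their counts was not tested. Both RNAs are known to be cut by RNase P and closed by a triple helix of U-rich stretches and a genomically encoded A-rich tract. In the reference transcripts (GENCODE M21) the Malat1 element lay at bases 6600 to 6705 of the 6983-base transcript and the Neat1 element was the last 100 bases of the 20771-base model, both on chromosome 19. They are shown 5′ to 3′, with capitals for each stretch of 10 or more bases that both hold.
Malat1 element: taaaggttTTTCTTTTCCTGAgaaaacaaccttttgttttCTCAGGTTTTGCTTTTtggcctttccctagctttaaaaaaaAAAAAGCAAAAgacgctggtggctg
Neat1 long 3′ end: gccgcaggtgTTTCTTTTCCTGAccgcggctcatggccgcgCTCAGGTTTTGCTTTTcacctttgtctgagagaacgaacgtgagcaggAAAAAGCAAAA
The capitals are TTTCTTTTCCTGA, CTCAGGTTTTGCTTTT and AAAAAGCAAAA, searched on the transcribed strand alone. In windows of 106 bases tiled over 30258 long noncoding transcripts they occurred in 0.00136%, 0.00034% and 0.0204%. The stretches were defined from Malat1 and Neat1, which were not left out of this search, so the shares are no independent background. All of them in this order were held by 2 transcripts, the Malat1 and long Neat1 models themselves. The Malat1 model runs 278 bases past the element shown and holds the polyadenylation signal AATAAA at bases 6962 to 6967, near its end. The short Neat1 model, of 3004 bases, also ends with AATAAA, in capitals.
Neat1 short 3′ end: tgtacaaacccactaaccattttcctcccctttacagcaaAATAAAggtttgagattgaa
That signal was held by 2.64% of windows of 60 bases. Counts per gene do not separate the short from the long Neat1 isoform.

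Total counts were 22465991 to 24038118 in the TNFR2-deficient libraries and 19296082 to 23587552 in the TNFR2-positive ones, and 3 counts corresponded to 0.125 to 0.153 CPM. CPM are each gene's counts scaled to a common library total, and levels below are CPM after TMM scaling, which corrects for composition. Tnfrsf1b, which encodes TNFR2, averaged 7.86 CPM in the TNFR2-deficient libraries and 82.9 CPM in the TNFR2-positive ones, the direction of the labels, and Foxp3, the defining Treg transcription factor, averaged 1.44 CPM in TNFR2-deficient and 75.4 CPM in TNFR2-positive libraries. Rag1, of the recombinase of developing lymphocytes, averaged 916.7 CPM in TNFR2-deficient and 3.31 CPM in TNFR2-positive libraries. Markers of several cell types moved with the groups, beside 35.1% higher and 34.2% lower over all tested genes. All 6 Treg markers, Tnfrsf1b among them, were lower (summed 30.7 to 36.3 CPM in TNFR2-deficient and 526 to 577 CPM in TNFR2-positive libraries). All 9 thymocyte markers were higher (3121 to 3215 CPM in TNFR2-deficient and 296 to 311 CPM in TNFR2-positive libraries). All 7 erythroid markers were higher (18040 to 20590 CPM in TNFR2-deficient and 4231 to 7001 CPM in TNFR2-positive libraries), as were all 4 platelet markers tested (13.58 to 15.95 CPM in TNFR2-deficient and 4.598 to 5.143 CPM in TNFR2-positive libraries) and 6 of 8 myeloid markers (872 to 947 CPM in TNFR2-deficient and 461 to 518 CPM in TNFR2-positive libraries). Of 8 B cell markers 4 were higher and 2 lower (7447 to 7791 CPM in TNFR2-deficient and 6216 to 6363 CPM in TNFR2-positive libraries). Of the thymocyte markers, Rag2 was at 0 in TNFR2-positive library 1 and Ptcra in TNFR2-positive libraries 1 and 3. Their part in the differences below was not tested, and in such bulk samples fewer cells of a type and less RNA per cell cannot be told apart. TNFR2-positive library 1 stood apart from the other libraries of its group, with a chi-square per gene of 15.6 and 20.7 against libraries 2 and 3, which gave 2.59 against each other.

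Malat1 (ENSMUSG00000092341) had the widest difference of the 3 members that passed the filter. Its level was 377, 413 and 322 CPM in TNFR2-deficient libraries 1 to 3, against 2006, 1583 and 1554 CPM in TNFR2-positive libraries 1 to 3. The groups lay far apart, and library 1 was the highest of the TNFR2-positive group. As a share of all counts, without further scaling, Malat1 took 0.0376%, 0.0408% and 0.0323% of the TNFR2-deficient libraries and 0.199%, 0.161% and 0.157% of the TNFR2-positive ones. The fitted log2 fold change, TNFR2-deficient over TNFR2-positive, was -2.21 (SE 0.112), or 4.62-fold lower, and it was -2.08 without TNFR2-positive library 1. The median over all 17022 tested genes was 0.04, and 5.06% of tested genes had a log2 fold change as low or lower. Of all tested genes, 69.3% passed edgeR's quasi-likelihood test at a Benjamini-Hochberg adjusted p below 0.05, 35.1% higher and 34.2% lower, so a difference between these groups is common.

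Malat1 was a larger part of the long noncoding counts in the TNFR2-positive libraries. Annotated long noncoding genes that passed the filter, 1357 in number, took 0.994%, 0.999% and 0.995% of the counts in TNFR2-deficient libraries 1 to 3 and 1.30%, 1.17% and 1.15% in TNFR2-positive libraries 1 to 3. Malat1 had the highest mean level of them over the 6 libraries together. It took 3.24% to 4.08% of their summed counts in the TNFR2-deficient libraries and 13.6% to 15.3% in the TNFR2-positive ones. Without Malat1 the class held 0.956% to 0.963% of the counts in the TNFR2-deficient libraries and 0.993% to 1.10% in the TNFR2-positive ones. Over the class 363 genes rose and 482 fell in the TNFR2-deficient libraries, with a median log2 fold change of -0.12, so that 62.3% were called beside 69.3% of all tested genes. Of 268 long noncoding genes with a mean of at least 5 CPM, 13 including Malat1 had a log2 fold change as low as that of Malat1.

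**Figure D1:**
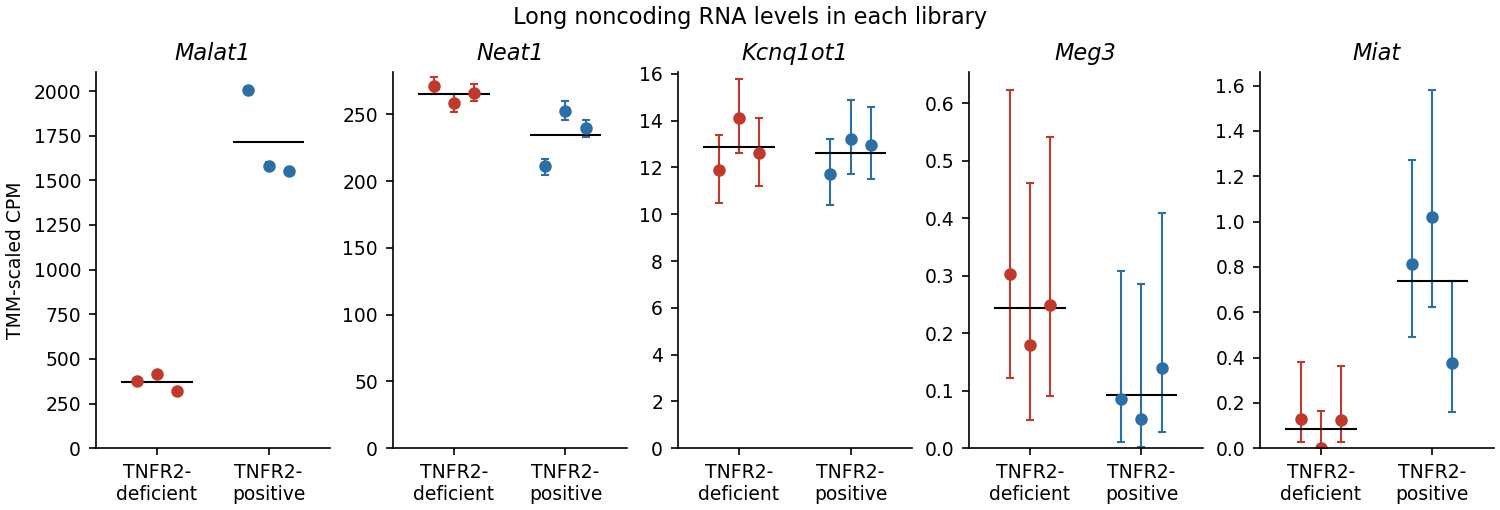
TMM-scaled CPM (y axis, from 0, a scale for each gene) of 5 long noncoding RNAs in TNFR2-deficient (red) and TNFR2-positive (blue) libraries. Points are libraries 1 to 3 from left to right with 95% Poisson intervals for counting error, and lines are group means. Malat1 was at 322 to 413 CPM in the TNFR2-deficient libraries and 1554 to 2006 CPM in the TNFR2-positive ones, while Kcnq1ot1 overlapped between the groups.

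Neat1 (ENSMUSG00000092274), the neighbour of Malat1, was slightly higher in the TNFR2-deficient libraries. It was at 272, 258 and 266 CPM in TNFR2-deficient libraries 1 to 3, against 211, 253 and 239.8 CPM in TNFR2-positive libraries 1 to 3. The groups did not overlap, but the lowest TNFR2-deficient and the highest TNFR2-positive library were close and library 1 was the lowest of the TNFR2-positive group. The fitted log2 fold change was 0.18 (SE 0.0705), or 1.13-fold higher, and it was 0.10 without TNFR2-positive library 1. With each library's relation to exonic length removed it was 0.91, taking the length of the long Neat1 model. Of tested genes 57.7% had a log2 fold change as low or lower.

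The ratio of Malat1 to Neat1 compares both RNAs within a library, so library scaling cancels. Per kilobase of annotated exon, Malat1 stood at 4.13, 4.76 and 3.60 times Neat1 in TNFR2-deficient libraries 1 to 3. In TNFR2-positive libraries 1 to 3 the ratio was 28.3, 18.6 and 19.3. The groups did not overlap, and TNFR2-positive library 1, with the highest Malat1 and the lowest Neat1 of its group, had the highest ratio. Per kilobase the ratio rests on the long Neat1 model, and it would be smaller if most Neat1 reads came from the short isoform.

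**Figure D2:**
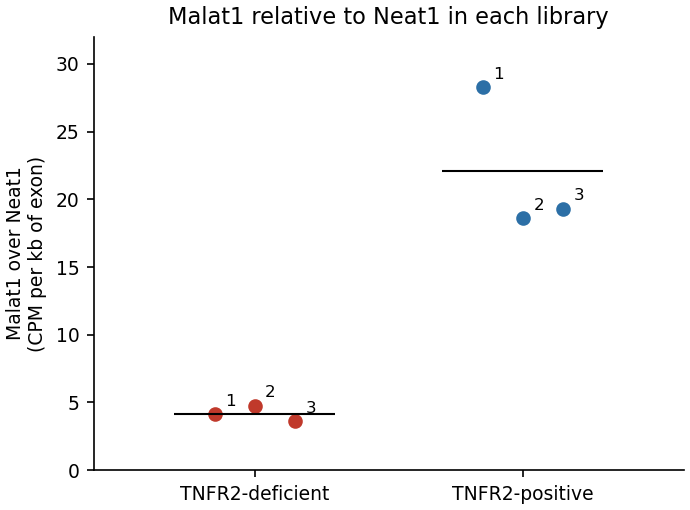
Ratio of Malat1 to Neat1 in CPM per kilobase of exon (y axis, from 0) in TNFR2-deficient (red) and TNFR2-positive (blue) libraries, with the library number beside each point and group means as lines. The TNFR2-deficient libraries lie at 3.60 to 4.76 and the TNFR2-positive ones at 18.6 to 28.3. Neat1 is taken at the length of its long model.

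Kcnq1ot1 (ENSMUSG00000101609) overlapped between the groups. It had 11.9, 14.1 and 12.6 CPM in TNFR2-deficient libraries 1 to 3, from 275, 313 and 304 counts, and 11.7, 13.2 and 12.9 CPM in TNFR2-positive libraries 1 to 3, from 274, 259 and 277 counts. In each group library 1 was the lowest and library 2 the highest, though the 95% counting intervals of a group's libraries overlapped. The fitted log2 fold change was 0.03 (SE 0.0991), with -0.05 to 0.08 when each library in turn was left out and 1.15 when each library's relation to exonic length was removed. The ratio of summed counts was 1.02, with a 95% counting interval of 0.927 to 1.12. Kcnq1ot1 is annotated on the strand opposite to Kcnq1, which held 3, 3 and 10 counts in the TNFR2-deficient libraries and 3, 1 and 0 in the TNFR2-positive ones. Whether strand was used in counting is not given, so reads of Kcnq1, unspliced ones included, cannot be told apart from those of Kcnq1ot1.

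Miat (ENSMUSG00000097767) was barely detected and had fewer counts in the TNFR2-deficient libraries. It held 3, 0 and 3 counts in TNFR2-deficient libraries 1 to 3, which is 0.130, 0 and 0.125 CPM. In TNFR2-positive libraries 1 to 3 it held 19, 20 and 8 counts, which is 0.813, 1.02 and 0.374 CPM. The groups did not overlap, library 3 was the lowest of the TNFR2-positive group, and summed over each group the ratio of 6 TNFR2-deficient to 47 TNFR2-positive counts was 0.118 after scaling (95% counting interval 0.0413 to 0.277). The repeats for which Miat is known stand in its 9163-base reference transcript from chromosome 5, where TACTAAC occurred 6 times. Bases 5581 to 5637 hold 3 of these, in capitals.
Miat repeats: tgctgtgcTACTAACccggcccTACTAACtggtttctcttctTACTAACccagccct
On the transcribed strand 0.124% of windows of 57 bases in long noncoding transcripts held TACTAAC at all, and 6 of 559701 windows held it 2 or more times.

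Meg3 (ENSMUSG00000021268) was close to the limit of detection in every library. There were 7, 4 and 6 counts in TNFR2-deficient libraries 1 to 3, or 0.302, 0.18 and 0.249 CPM, and 2, 1 and 3 counts in TNFR2-positive libraries 1 to 3, or 0.0856, 0.0511 and 0.140 CPM. The groups did not overlap, yet the 95% counting interval of the ratio of 2.63 between the group sums, 0.988 to 8.13, included no difference. The TNFR2-positive libraries were all at or under 3 counts. Markers of neurons, fibroblasts, endothelium and thymic epithelium were measured beside them, and their part in these counts was not tested. The 7 neuron markers in the table summed to 1.94 to 2.97 CPM in the TNFR2-deficient libraries and 2.61 to 3.09 CPM in the TNFR2-positive ones, with 2 tested and neither called. Of them, Snap25, Rbfox3 and Gap43 were at 0 in all TNFR2-positive libraries. Of 10 fibroblast and endothelial markers 5 were tested, of which 2 were higher and 2 lower, beside 35.1% higher and 34.2% lower over all tested genes. Pecam1, one of the 2 higher, did not pass with RLE size factors, unscaled library sizes or DESeq2, nor without any one library other than TNFR2-positive library 1. Their sum of 246 to 257 CPM in TNFR2-deficient and 219.5 to 230.4 CPM in TNFR2-positive libraries was nearly all Pecam1, which leukocytes express too, and Col3a1 stayed at 0.102 CPM or less. Of 5 thymic epithelial markers, summed at 5.98 to 6.49 CPM in TNFR2-deficient and 5.18 to 5.94 CPM in TNFR2-positive libraries, Epcam was tested and was not called. Krt5 and Foxn1 were at 0 in all TNFR2-positive libraries.

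Of the 5 members measured, the groups did not overlap for Malat1, Neat1, Miat and Meg3, where 74.5% of tested genes did not overlap either. Malat1 and Miat were lower and Neat1 and Meg3 higher in the TNFR2-deficient libraries. The 95% counting interval of the Meg3 ratio, 0.988 to 8.13, included no difference, and the Neat1 log2 fold change was 0.10 without TNFR2-positive library 1. Per kilobase of exon, the order of levels depended on the Neat1 model. At the length of its short model, Neat1 would come before Malat1 in the TNFR2-deficient libraries. With Neat1 taken at the length of its long model, the order was Malat1, Neat1, Kcnq1ot1 in both groups. In the TNFR2-deficient libraries these were at 46.1 to 59.2, 12.4 to 13.1 and 0.128 to 0.152 CPM per kilobase, and in the TNFR2-positive ones at 222 to 287, 10.2 to 12.2 and 0.126 to 0.142. Below them, Meg3 and Miat overlapped at 0.00997 to 0.0167 and 0 to 0.0139 CPM per kilobase in the TNFR2-deficient libraries. In the TNFR2-positive libraries Miat came first, at 0.0402 to 0.110, and Meg3 was at 0.00282 to 0.00776.

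Length bears on how these RNAs compare with other genes. Over all tested genes with a length, the log2 fold change fell with exonic length (Spearman rho = -0.298 across genes, which are not independent replicates). Genes of 4 to 7 kb had a median log2 fold change of -0.09 and those over 12 kb one of -0.69. Malat1, of 6.98 kb, was lower than most genes of its class, of which 2.72% were as low or lower. Neat1 and Kcnq1ot1, of 20.8 and 93.1 kb, belong to the class over 12 kb, in which 539 of 703 genes fell and 69 rose. Their log2 fold changes of 0.18 and 0.03 lay 0.87 and 0.72 above its median, and 11.5% and 14.4% of the class were as high or higher. With each library's relation to exonic length removed, the log2 fold changes were -1.93 for Malat1, 0.91 for Neat1 and 1.15 for Kcnq1ot1. For Neat1 the class and the value with the relation to length removed rest on the long model. The short model, of 3004 bases, would belong to the class of 2 to 4 kb, with a median of 0.23. Kcnq1ot1 lies near the upper end of all gene lengths, where few genes set this relation.

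**Figure D3:**
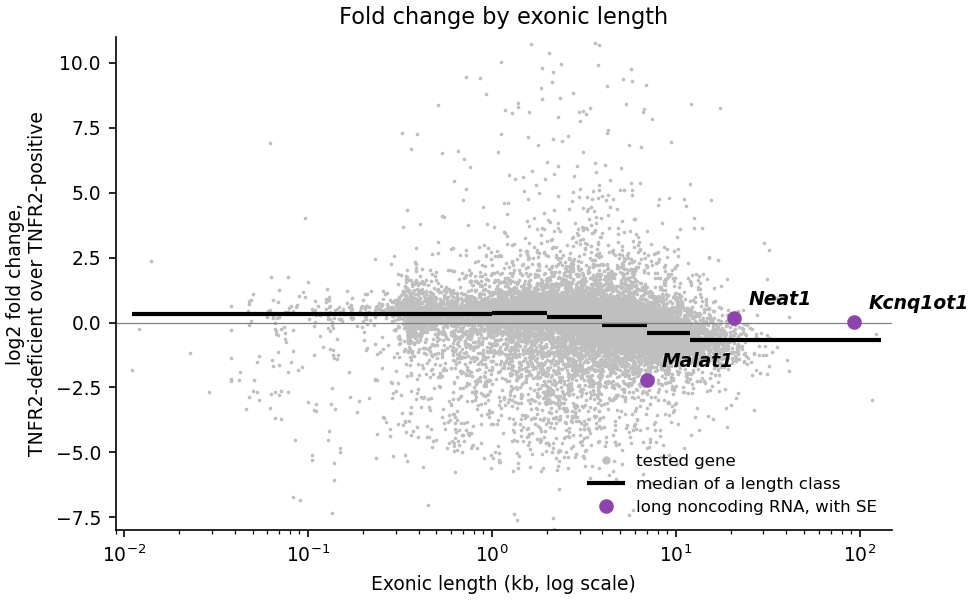
Log2 fold change, TNFR2-deficient over TNFR2-positive (y axis), against exonic length in kilobases (x axis, log scale) for tested genes (grey), with the median of each length class (black lines) and Malat1, Neat1 and Kcnq1ot1 with their SE (purple). Malat1, at -2.21, lies below its class median of -0.09, and Neat1 and Kcnq1ot1, at 0.18 and 0.03, lie above theirs of -0.69. Neat1 is placed by its long model.

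Within the groups, Malat1 varied more than Neat1. In the TNFR2-deficient group the highest Malat1 library was 1.28 times the lowest, a ratio reached by 4.69% of genes with a mean of at least 5 CPM there, whose median ratio was 1.09. Neat1 had a ratio of 1.05 there, reached by 77.7% of these genes, and Kcnq1ot1 one of 1.19, reached by 14.5%. In the TNFR2-positive group the ratios were 1.29 for Malat1, 1.20 for Neat1 and 1.13 for Kcnq1ot1, reached by 15.7%, 34.3% and 57.1% of genes, with a median of 1.15. Malat1 in TNFR2-positive library 1 stood at 117% of its group mean, whereas Neat1 and Kcnq1ot1 there stood at 90.1% and 92.8%. That library was the highest of its group for 88.5% of tested genes over 12 kb and the lowest for 27 of 703. Among these were Kcnq1ot1 and Neat1, the latter placed by its long model.

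**Figure D4:**
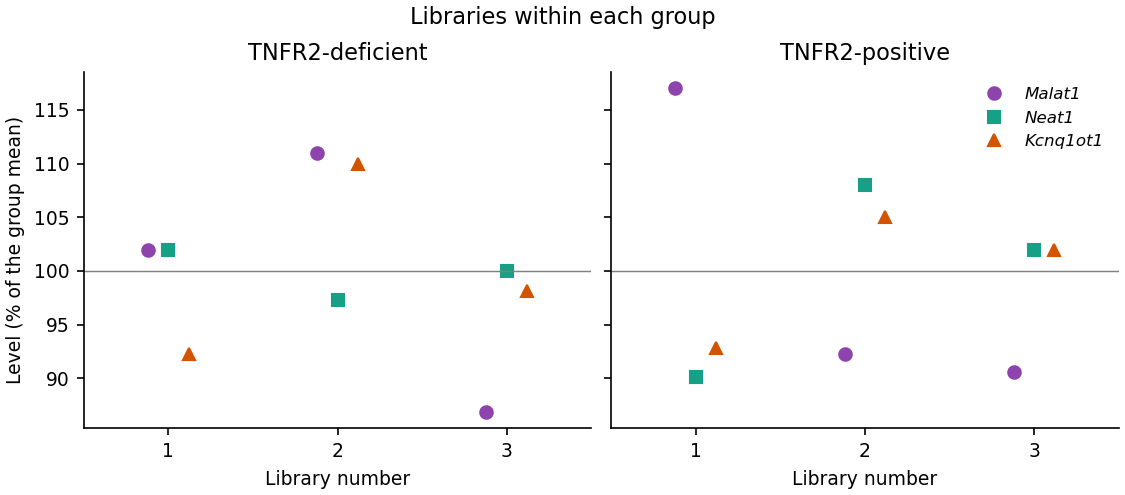
Levels of Malat1 (circles), Neat1 (squares) and Kcnq1ot1 (triangles) in each library as a percentage of the mean of its own group (y axis), for TNFR2-deficient (left) and TNFR2-positive (right) libraries by library number (x axis). In TNFR2-positive library 1 Malat1 is at 117% and Neat1 and Kcnq1ot1 are at 90.1% and 92.8%.

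Proteins of paraspeckles, the bodies built on Neat1, moved in both directions. Of 21 genes tested 9 rose, 4 fell and 8 did not pass the test, beside 35.1% higher and 34.2% lower over all tested genes, with a median log2 fold change of 0.12 (0.04 over all genes). Among the proteins that bind Neat1 at the core of the paraspeckle, Sfpq fell to 353 CPM in the TNFR2-deficient libraries against 560 CPM in the TNFR2-positive ones (log2 fold change -0.67, edgeR adjusted p = 0.00016). Pspc1 fell by 0.27 (edgeR adjusted p = 0.0034), and Nono was at 329.7 CPM in TNFR2-deficient and 309.7 CPM in TNFR2-positive libraries (log2 fold change 0.09, edgeR adjusted p = 0.154). Sfpq, Pspc1 and Nono were singled out after their values were seen. Small adjusted p-values belonged to the cold-inducible RNA-binding protein Cirbp, 1.98-fold higher at 159 ± 1.19 CPM in TNFR2-deficient and 80.2 ± 4.85 CPM in TNFR2-positive libraries (SD, n = 3 each, edgeR adjusted p = 1.03e-07) and to Hnrnph3, needed for paraspeckle formation (log2 fold change 0.63, edgeR adjusted p = 1.72e-06). With the relation to length removed 16 rose and 2 fell, and 2 fell without TNFR2-deficient library 2.

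Nuclear speckle and splicing factors, the surroundings of Malat1, moved in both directions, and none of those tested had a log2 fold change as low as that of Malat1. Of 24 tested 4 rose and 10 fell, beside 35.1% higher and 34.2% lower over all tested genes, with a median log2 fold change of -0.13. Srrm2, a scaffold of nuclear speckles, was 2.41-fold lower at 443 ± 6.98 CPM in the TNFR2-deficient libraries against 1067 ± 195 CPM in the TNFR2-positive ones (SD, n = 3 each, edgeR adjusted p = 9.48e-07). Rbm25, a splicing regulator, and Sf3b1, a component of the U2 snRNP, fell by 0.80 and 0.87 on the log2 scale (edgeR adjusted p = 2.88e-06 and 4.63e-06). The genes that rose were 2 without TNFR2-deficient library 1, TNFR2-deficient library 3 or TNFR2-positive library 2. With the relation to length removed 8 rose and 6 fell, and the Rbm25 log2 fold change was -0.10 (edgeR adjusted p = 0.0835). Of 10 splicing-related genes whose transcripts are known for introns detained in the nucleus, 6 fell and 2 rose (median -0.38), against the same shares over all genes. The 2 that rose did not pass with RLE size factors or with DESeq2, nor when any library other than TNFR2-deficient library 2 (1 left) or TNFR2-positive library 1 (3 higher) was left out. Nktr was 7.58-fold lower, at 29.2 ± 1.5 CPM in TNFR2-deficient and 220.9 ± 52.0 CPM in TNFR2-positive libraries (SD, n = 3 each, edgeR adjusted p = 1.06e-08), the gene of this list that lay below Malat1 in log2 fold change. Ddx5, an RNA helicase, and Ccnl1, a cyclin that regulates splicing, fell by 0.62 and 0.72 (edgeR adjusted p = 3.27e-06 and 5.84e-06).

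Among genes of nuclear RNA modification and turnover, 13 were tested. Of these 9 fell and 2 rose, beside 35.1% higher and 34.2% lower over all tested genes, with a median log2 fold change of -0.31, and 7 fell and 4 rose with the relation to length removed. Dis3, a nuclease of the RNA exosome, was 1.98-fold lower at 27.3 ± 0.659 CPM in TNFR2-deficient and 54.0 ± 5.65 CPM in TNFR2-positive libraries (SD, n = 3 each, edgeR adjusted p = 7.62e-07). Pabpn1, the nuclear poly(A)-binding protein, rose by 0.58 on the log2 scale (edgeR adjusted p = 7.68e-06). Mettl16, whose human protein binds the MALAT1 triple helix, fell by 0.58 (edgeR adjusted p = 1.68e-05), with a log2 fold change of 0.01 once the relation to length was removed.

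Host genes of small nucleolar RNAs are the class of Snhg11. Of 14 tested 9 rose and 3 fell, beside 35.1% higher and 34.2% lower over all tested genes, with a median log2 fold change of 0.28. Snhg20 was at 15.8 ± 1.51 CPM in TNFR2-deficient and 9.05 ± 1.31 CPM in TNFR2-positive libraries (SD, n = 3 each, edgeR adjusted p = 8.7e-05). Snhg8 and Zfas1 rose by 0.55 and 0.46 on the log2 scale (edgeR adjusted p = 0.000111 and 0.000436). Snhg14, left out by the limit on mean CPM and named after its value was seen, was the lowest of this list. Its log2 fold change was -2.02 (edgeR adjusted p = 9.61e-06), at 1.36 CPM in TNFR2-deficient and 5.54 CPM in TNFR2-positive libraries. With the relation to length removed 4 rose and 4 fell, and 1 fell without TNFR2-deficient library 1, with upper-quartile scaling or without a filter. Among 13 other autosomal long noncoding RNAs tested 2 rose and 7 fell (median -0.41), beside 35.1% higher and 34.2% lower over all tested genes, and 1 rose with DESeq2 or without TNFR2-deficient libraries 2 or 3 or TNFR2-positive libraries 2 or 3, each left out in turn. Mir142hg, the host of an abundant blood cell microRNA, was 2.21-fold higher at 234.6 ± 8.49 CPM in TNFR2-deficient and 106 ± 12.6 CPM in TNFR2-positive libraries (SD, n = 3 each, edgeR adjusted p = 3.1e-07). Norad, a cytoplasmic RNA that binds Pumilio proteins, and Tug1 fell by 0.40 and 0.46 (edgeR adjusted p = 7.59e-05 and 0.000116), and the Tug1 log2 fold change was -0.02 (edgeR adjusted p = 0.776) with the relation to length removed. The lowest of this list, Lncpint, was named after its value was seen. It had a log2 fold change of -2.89 (edgeR adjusted p = 9.11e-08), at 1.13 CPM in TNFR2-deficient and 8.35 CPM in TNFR2-positive libraries, and was the one gene of the list below Malat1.

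**Figure D5:**
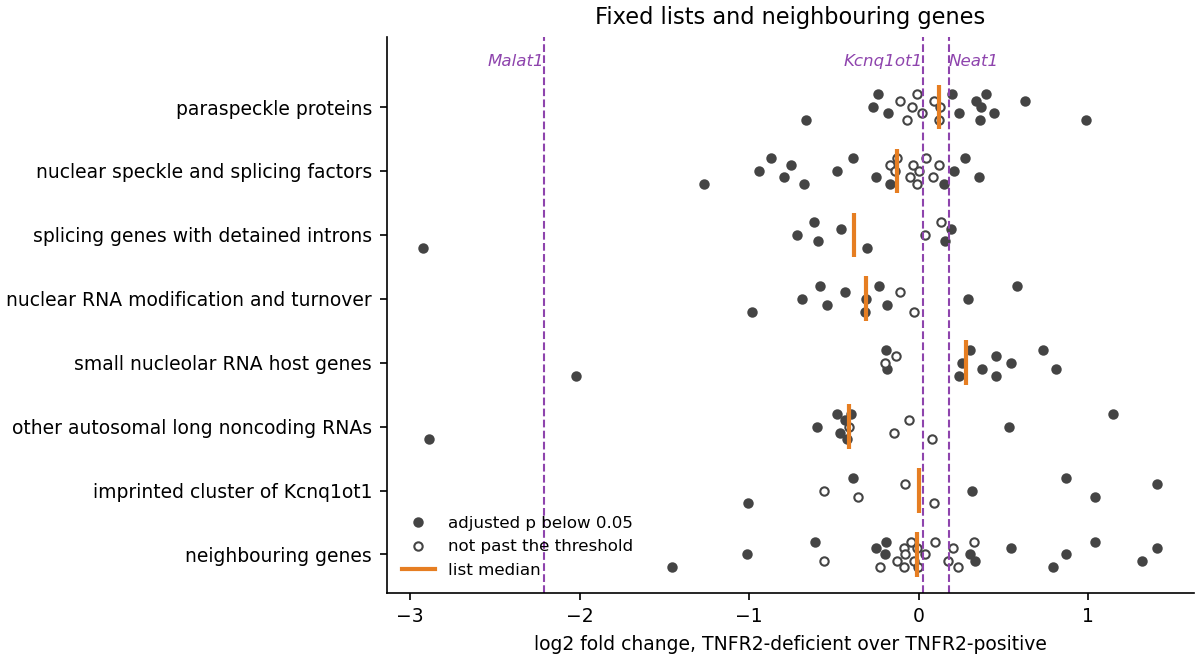
Log2 fold change, TNFR2-deficient over TNFR2-positive (x axis), of the tested genes of 7 fixed lists and of the neighbouring genes (rows), filled where edgeR's adjusted p was below 0.05, with list medians in orange and Malat1, Kcnq1ot1 and Neat1 as dashed lines. List medians lie between -0.41 and 0.28, all above Malat1 at -2.21. Neighbouring genes are the nearest tested ones on each side of a member.

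Genes around the members moved in both directions. In the imprinted cluster of Kcnq1ot1, 10 of 14 genes were tested, of which 4 rose and 2 fell (median log2 fold change 0.00), beside 69.3% called over all genes. Cdkn1c, a cell cycle inhibitor that Kcnq1ot1 silences on the paternal allele, was higher, at 0.833 ± 0.0999 CPM in TNFR2-deficient and 0.313 ± 0.114 CPM in TNFR2-positive libraries (SD, n = 3 each, edgeR adjusted p = 0.00469). Cd81, a tetraspanin, and Tssc4 rose by 0.87 and 1.04, and Osbpl5, a lipid transfer protein, by 0.31 on the log2 scale (edgeR adjusted p = 1.31e-06, 1.08e-05 and 0.00181). The decoy receptor Tnfrsf22 and its relative Tnfrsf26 fell by 1.01 and 0.39 (edgeR adjusted p = 8.75e-06 and 0.000671). Nap1l4, Tspan32, Tnfrsf23 and Trpm5 had log2 fold changes of -0.08, 0.09, -0.36 and -0.56 and did not pass the test (edgeR adjusted p = 0.201, 0.179, 0.304 and 0.13), though Trpm5 did without TNFR2-positive library 3, Tspan32 with upper-quartile scaling, and Tspan32 and Nap1l4 with the relation to length removed.

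In the cluster of Meg3, 2 genes were tested. Begain was higher, at 7.27 ± 0.951 CPM in TNFR2-deficient and 2.90 ± 0.499 CPM in TNFR2-positive libraries (SD, n = 3 each, edgeR adjusted p = 2.17e-05), while Wdr25 had a log2 fold change of 0.33 (edgeR adjusted p = 0.174). Dlk1 and Rian, the cluster's paternal and maternal partners of Meg3, were at or under 0.0935 and 0.374 CPM in every library. Of the 30 nearest tested genes on either side of the members in the RefSeq gene order, 8 rose and 6 fell, beside 69.3% called over all genes. Untested genes often lay between, so many of these were not adjacent to a member. Beside Malat1 and Neat1, Frmd8 was at 74.3 ± 1.52 CPM in TNFR2-deficient and 75.8 ± 3.07 CPM in TNFR2-positive libraries (SD, n = 3 each, log2 fold change -0.03, edgeR adjusted p = 0.679). The tested genes nearest to Miat, Tpst2 and Pitpnb, lay 5 and 21 genes away. Tpst2 had a log2 fold change of 0.10 (edgeR adjusted p = 0.349), and Pitpnb fell by 0.25 (edgeR adjusted p = 0.0109). The tested genes nearest to Snhg11, Ralgapb and Snhg17, lay 3 and 4 genes away and fell by 1.01 and 0.19 (edgeR adjusted p = 3.61e-06 and 0.0194). However, Snhg17 had a log2 fold change of 0.09 with the relation to length removed. It did not pass the test with upper-quartile scaling, without a filter or without TNFR2-deficient library 1. On the far side of Meg3, the nearest tested gene, Gm3379, lay 87 genes away. Gm3379 rose by 0.30 (edgeR adjusted p = 0.0131), a call lost without TNFR2-deficient library 2 and with the relation to length removed.

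The genes whose levels over the 6 libraries ran most like each member were found by the root mean square difference between centred log2(CPM + 0.5) profiles. For Malat1 these were Golm1, a Golgi membrane protein (0.0505), Cd226, an activating receptor of T and natural killer cells (0.0845), and Srcap, a chromatin remodeller (0.107), among 9960 candidates. Golm1 was at 5.18, 5.81 and 4.82 CPM in TNFR2-deficient libraries 1 to 3 and 29.4, 24.5 and 23.0 CPM in TNFR2-positive libraries 1 to 3, so it too was highest in TNFR2-positive library 1. For Neat1 they were Pigq (0.0189), Pgm1 (0.0246) and Alg1 (0.0255), enzymes of glycolipid anchor, sugar phosphate and glycan synthesis. For Kcnq1ot1 they were Srm (0.0254), which makes spermidine, Usp30 (0.0323), a mitochondrial deubiquitinase, and Mrpl37 (0.0352), a mitochondrial ribosomal protein. Within 2 times the smallest difference lay 2 genes for Malat1, 13 for Neat1 and 39 for Kcnq1ot1.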

How the data were processed

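The authors deposited whole-number counts per Ensembl gene for 6 libraries, without normalization. Per the labels' protocols, RNA was extracted with TRIzol, captured with oligo-dT beads, fragmented and amplified by PCR. HISAT2 2.1.0 and build GRCm39 are named, per the submitters' processing notes, while the program that counted reads, its annotation and its strand setting were not given in the sources used here. Groups came from the sample titles and columns were matched by name.

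After filterByExpr and TMM scaling, the groups were compared by glmQLFTest of edgeR 4.0.16 in R 4.3.3 (intercept and group), with Benjamini-Hochberg adjustment over 17022 genes and a threshold of 0.05. The fit was tested on simulated data. The members, lists and tests were chosen with earlier results of these data known. Lists are described by counts and medians. Named genes were the members, Tnfrsf1b, Foxp3 and Rag1 as checks, the 3 called genes per list with the lowest adjusted p and a mean of at least 5 CPM (markers are given as lists, and a few genes falling under it are not reported here), all tested genes of the imprinted clusters, the nearest tested gene on each side of each member, and the 3 genes whose pattern was most like each member's. Poisson and exact binomial intervals, at 95%, and the floor of 3 counts cover counting error only. Symbols, exonic lengths and transcript sequences came from GENCODE M21, an older build, and gene order from RefSeq (GRCm38.p6), so no genome coordinates are printed. A length was known for 97.7% of tested genes. Alternatives were other scalings and filters, DESeq2 1.42.0, limma-voom (limma 3.58.1), the replicate number as a block, leaving out each library, and offsets from splines with 4 degrees of freedom that remove each library's relation to exonic length.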

Additional observations from a re-analysis of the deposited data

How the results depend on the processing

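Of the alternatives that kept all libraries, removing the relation to exonic length moved the members beyond the spread between libraries: to -1.93 for Malat1, 0.91 for Neat1, at the length of its long model, and 1.15 for Kcnq1ot1. It also changed list counts, to 16 higher and 2 lower for paraspeckle proteins, 8 higher and 6 lower for speckle and splicing factors, 4 higher for RNA modification and turnover, 4 higher for small nucleolar RNA host genes, and the log2 fold changes of Mettl16 and Snhg17 turned to 0.01 and 0.09. Genes with detained introns called higher were 0 with RLE size factors and 0 with DESeq2, small nucleolar RNA host genes called lower were 1 with upper-quartile scaling and 1 without a filter, and other long noncoding RNAs called higher were 1 with DESeq2, and the cause was not tested. Leaving out each library gave log2 fold changes of -2.30 to -2.08 for Malat1, 0.10 to 0.23 for Neat1 and -0.05 to 0.08 for Kcnq1ot1. The list counts then ran from 7 to 11 higher and 2 to 5 lower for paraspeckle proteins, 2 to 5 higher for speckle factors, 0 to 3 higher for genes with detained introns, 6 to 8 higher and 1 to 4 lower for small nucleolar RNA host genes, and 1 to 2 higher for other long noncoding RNAs. With the replicate block Malat1 stayed at -2.21. Deviations of same-numbered libraries from their group means had r of 0.0705, 0.0963 and -0.0902, and TNFR2-positive library 1 correlated best with TNFR2-deficient library 3 (0.111). The labels do not say whether the numbers mark pairs, and with 3 libraries per group these values cannot settle it. Over 54 other named genes, 788 of 810 values under the alternatives kept direction and call, 16 calls were lost, 4 were gained and 2 reversed. Depth limits Meg3 and Miat, at most 20 counts in a library, which the filter removed, so no test of them is given.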
